A study of Mus musculus with 6 samples.

Results

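Small leucine-rich proteoglycans are secreted matrix proteins with a short core of leucine-rich repeats, most of which carry sulfated sugar chains. The genes described here are Dcn (decorin), Bgn (biglycan), Aspn (asporin), Lum (lumican), Fmod (fibromodulin), Prelp (the proline- and arginine-rich member) and Ogn (osteoglycin, also called mimecan). They were taken by name from the platform annotation, through probe sets assigned to exactly 1 gene. All 7 were found, with 18 probe sets among 34945 with 1 gene, out of 18193 genes in all. Each gene is represented by its brightest probe set (highest mean log2 signal), and the others are given beside it.

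The data are 6 Affymetrix arrays of C57BL/6 mouse embryonic fibroblasts, connective tissue cells grown out of embryos of 14 days of gestation. The labels give males and females as pooled. The cells were kept in medium with 10% serum. In 3 arrays the RNA was from wild-type cells, and in 3 it was from cells labelled as knockout for abl and arg, the genes Abl1 and Abl2 of the Abl kinases. The labels do not say how the lines were derived, whether the knockout cells are a single clone, or whether the arrays of a group are separate cultures; the spread that p-values rest on may therefore be technical. The question taken up here is whether the proteoglycan genes differed between the groups.

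The core proteins bind collagen fibrils along their surface and set fibril diameter and spacing. Class I, with decorin and biglycan, carries chondroitin or dermatan sulfate chains, although asporin of the same class lacks such a chain. Class II, with lumican and fibromodulin, carries keratan sulfate, and its member PRELP has a basic stretch that binds heparan sulfate instead. Osteoglycin belongs to class III. Several of these proteins also bind growth factors such as TGF-beta or act on cell surface receptors, and fibroblasts are a main source of decorin and biglycan in connective tissue.

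Array medians ran from 13.4 to 14.7, and a signal below its array's median is called dim here. Pearson's r across genes was at least 0.9985 within a group and at most 0.905 between groups, where genes are not independent replicates. The targeted genes were not clearly lower, so directions are given for arrays labelled knockout: the brightest Abl1 probe set read 184.8 ± 4.46 in wild type and 169.8 ± 8.22 in arrays labelled knockout, and the brightest Abl2 probe set read 256.1 ± 9.30 and 254.1 ± 11.9 (SD, n = 3 each; adjusted p = 0.107 and 0.888, limma over all probe sets). Of the other Abl1 probe sets, 1 above the median on all arrays was higher in arrays labelled knockout (16 ± 1.41 against 22.9 ± 2.34, difference 0.28, adjusted p = 0.00586), and so was a dim one (0.21, adjusted p = 0.0012). The other Abl2 probe sets did not pass (0.05 and -0.08). Where these probes lie relative to the deleted parts was not analysed here. For the beta-actin control, 3' over 5' signal (log2) was 0.470 ± 0.031 in wild type and 0.365 ± 0.012 in arrays labelled knockout (SD, n = 3; exact permutation p = 0.1, the smallest possible), and its part in the results below was not tested. The poly-A spike controls were lower by 0.52 and the hybridization spike controls higher by 0.26 (log2) in arrays labelled knockout, so a scaling on either moves every gene: the median difference over all genes, -0.03 here, became 0.12 with the poly-A and -0.12 with the hybridization spikes.

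Of the 7 genes, 5 rose in arrays labelled knockout at an adjusted p under 0.05 (Ogn, Prelp, Dcn, Bgn and Lum), none fell, and Fmod and Aspn did not pass. Among all genes tested, 24.2% rose and 35.5% fell by the same rule, 59.7% together. At an unadjusted p under 0.05 the count of members that fell was also 0. With a difference of at least 2-fold added, 3 of the 7 rose (Ogn, Prelp and Dcn), against 7.0% of all genes, and none fell by as much, against 8.77%. The groups did not overlap for 5 of the 7, each higher in arrays labelled knockout; over all genes 25.7% did not overlap and were higher and 39.0% lower, 64.7% together. The median of the 7 differences was 0.97, against -0.03 over all genes. Differences are in log2(signal + 16), labelled knockout minus wild type, with a 95% interval from the fit; the offset of 16 shrinks the change of dim genes. In bulk RNA, more cells that express a gene and more RNA per cell cannot be told apart.

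**Figure D1:**
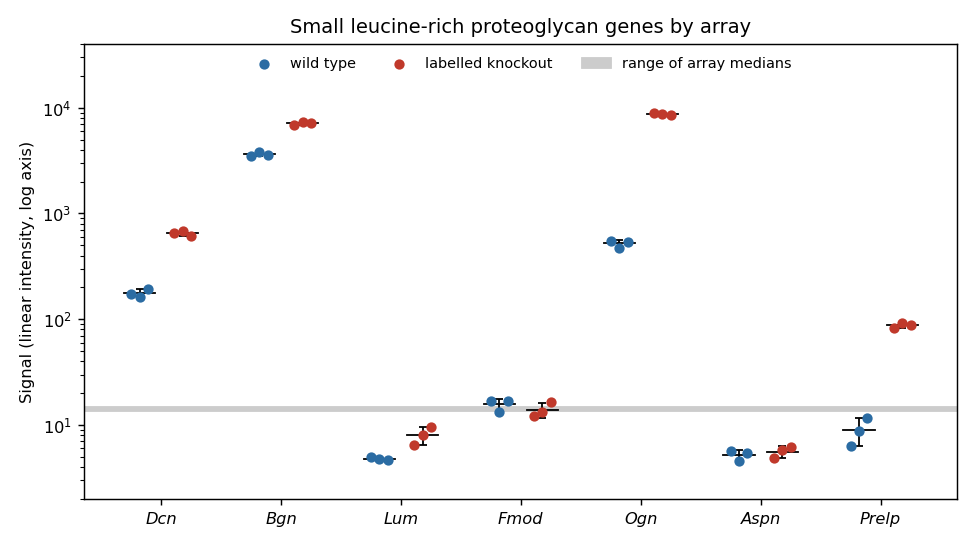
Signal (linear intensity on a log axis) of the brightest probe set of each of the 7 genes on 3 wild-type arrays (blue) and 3 arrays labelled knockout (red), with group means as lines, SD as bars (n = 3) and the range of array medians, 13.4 to 14.7, in grey. Ogn, Bgn, Dcn and Prelp do not overlap between the groups, and Lum and Aspn lie below the grey band on every array.

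**Figure D2:**
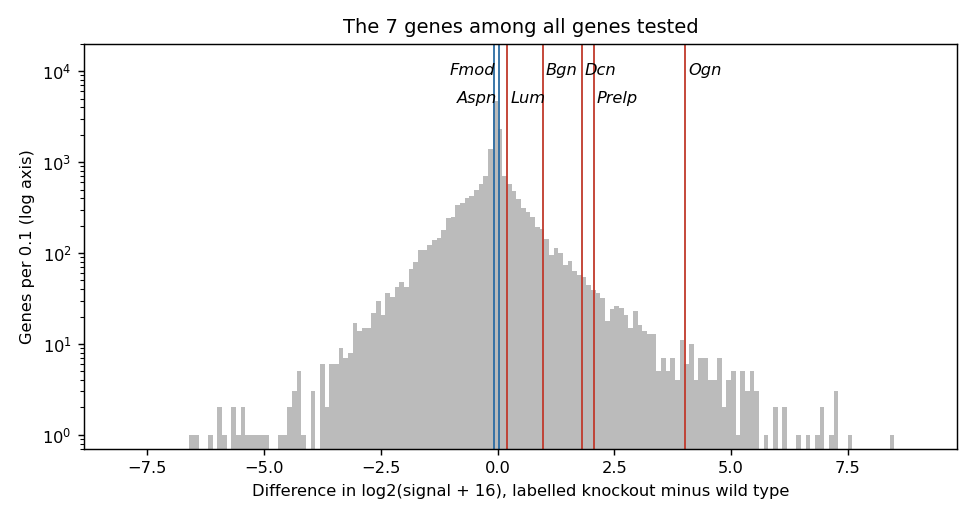
Number of genes per 0.1 of log2 difference (labelled knockout minus wild type, log axis) over 18193 genes, with the 7 genes as vertical lines, red where the adjusted p was under 0.05 and blue otherwise. Ogn at 4.02 lies far out on the higher side, and Fmod and Aspn lie near 0.

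Decorin, the class I proteoglycan that coats collagen fibrils and binds TGF-beta, was measured well above the floor by 1 of its probe sets. The Dcn signals were 171.6, 163.8 and 193.4 on the wild-type arrays and 653.9, 688.6 and 611.8 on those labelled knockout. All 3 of the latter were higher than every wild-type array. The ratio of the group means was 3.70, from 176.3 ± 15.3 to 651.4 ± 38.5 (SD, n = 3 each). Dcn rose by 1.80 on the log2 scale (95% interval 1.66 to 1.93, adjusted p = 7.52e-11). The other Dcn probe set was dim on every array, with means of 4.81 and 4.75, and did not differ (adjusted p = 0.897 over all probe sets). Averaging both brought the Dcn difference to 0.90.

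Biglycan, the class I relative of decorin that can also signal through Toll-like receptors when it is released from the matrix, gave strong signals in both groups. Its brightest probe set read 3518.1, 3783.0 and 3560.8 in wild type and 6795.8, 7362.1 and 7149.1 in arrays labelled knockout. The groups did not overlap, and the ratio of means was 1.96 (3620.6 ± 142 against 7102.3 ± 286, SD, n = 3 each). The Bgn difference of 0.97 (95% interval 0.87 to 1.07, adjusted p = 1.3e-09) reached past 2-fold at the upper end of its interval only. Both other Bgn probe sets were higher as well, by 1.35 (95% interval 1.23 to 1.46) and 1.10 (1.01 to 1.18), from means of 2320.9 and 2244.4 to 5916.2 and 4815.5. All 3 probe sets therefore gave the same direction with no overlap of the groups. Bgn lies on the X chromosome, and the 4 measured sex-linked markers (Xist, Eif2s3y, Kdm5d and Uty) were dim on every array. While dim, Eif2s3y (0.28, adjusted p = 0.00106) and Uty (0.15, adjusted p = 0.00331) passed as higher in arrays labelled knockout. Xist and Kdm5d did not pass. With Xist and the Y-linked genes all dim, these markers show neither sex clearly. The pooling of sexes given in the labels was not tested.

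Asporin, the third class I gene and a binder of collagen and TGF-beta, was dim on all arrays. The brighter Aspn probe set read 5.67, 4.56 and 5.42 in wild type and 4.84, 5.75 and 6.24 in arrays labelled knockout. The groups overlapped, and the difference was 0.03 (95% interval -0.04 to 0.09, adjusted p = 0.494). The other probe set had means of 2.66 and 2.63. At these signals a low transcript level cannot be told from the floor of the array.

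Among class II genes, lumican, a keratan sulfate proteoglycan of cornea and many connective tissues, has a single probe set here. The Lum signals were 4.93, 4.82 and 4.68 in wild type and 6.50, 8.10 and 9.50 in arrays labelled knockout. The groups did not overlap, and the difference of 0.21 passed (95% interval 0.12 to 0.29, adjusted p = 0.000618). Every Lum value was nevertheless below its array's median, and no ratio is given.

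By its brightest probe set alone, Prelp, a class II gene whose protein anchors matrix to basement membranes, went from dim to measured. Its brightest probe set read 6.34, 8.85 and 11.7 in wild type, below the median on each array, and 83.0, 91.9 and 89.1 in arrays labelled knockout, above it on each. The Prelp difference was 2.06 (95% interval 1.87 to 2.26, adjusted p = 5.4e-10). The second probe set, above the median on all 6 arrays, rose by less, from 17.1 ± 2.31 to 29.3 ± 3.13 (SD, n = 3 each), a difference of 0.45 (95% interval 0.27 to 0.63, adjusted p = 0.000415 over all probe sets). Both probe sets thus gave the same direction, but the larger size of the Prelp difference rests on a probe set ending in s_at, a suffix for sequences shared between transcripts.

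Fibromodulin, a class II regulator of collagen fibril growth in tendon, had 6 probe sets, none above the median on all arrays. The one with the highest mean read 16.9, 13.2 and 16.8 in wild type and 12.2, 13.3 and 16.5 in arrays labelled knockout. These values overlapped, and the difference of -0.08 did not pass (95% interval -0.22 to 0.07, adjusted p = 0.361). Of the other 5 probe sets 4 passed over all probe sets, each lower in arrays labelled knockout. The lowest adjusted p was that of a probe set that read 20, 18.9 and 27.0 against 6.16, 5.87 and 6.04, a difference of -0.78 (95% interval -0.94 to -0.62, adjusted p = 1.07e-06). It was above the median on all 3 wild-type arrays and below it on all 3 others. In total 5 of the 6 Fmod probe sets end in x_at, the suffix for probes that may bind other transcripts. With all 6 averaged the difference was -0.25 and passed (adjusted p = 0.000188), and under poly-A spike scaling the brightest turned to 0.17 (adjusted p = 0.0311).

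Osteoglycin, a class III proteoglycan of bone, vessel wall and other connective tissue, had the largest difference of the 7. The Ogn signals were 550.3, 476.3 and 542.6 in wild type and 8838.0, 8681.6 and 8571.0 in arrays labelled knockout. The groups lay far apart, with a ratio of means of 16.6 (523.1 ± 40.7 against 8696.8 ± 134, SD, n = 3 each). Ogn rose by 4.02 (95% interval 3.90 to 4.13, adjusted p = 1.77e-14), a difference at percentile 99.5 of all genes. The second Ogn probe set gave 476.9, 456.9 and 418.8 against 5954.6, 6527.3 and 5818.1. Its difference of 3.71 (95% interval 3.59 to 3.83) was slightly smaller, with a ratio of means of 13.5.

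Over all 18 probe sets of the 7 genes, 9 passed as higher and 4 as lower, against 24.9% and 27.2% (52.2% together) of all 45037 probe sets that are not controls. The 4 that fell are those of Fmod. Of the 18 probe sets, 7 were above the median on all arrays: both of Ogn, all 3 of Bgn, 1 of Dcn and 1 of Prelp. Another 6 were dim on every array. The 7 above the median all rose, and the 4 that fell were below it on at least 3 arrays each.

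**Figure D3:**
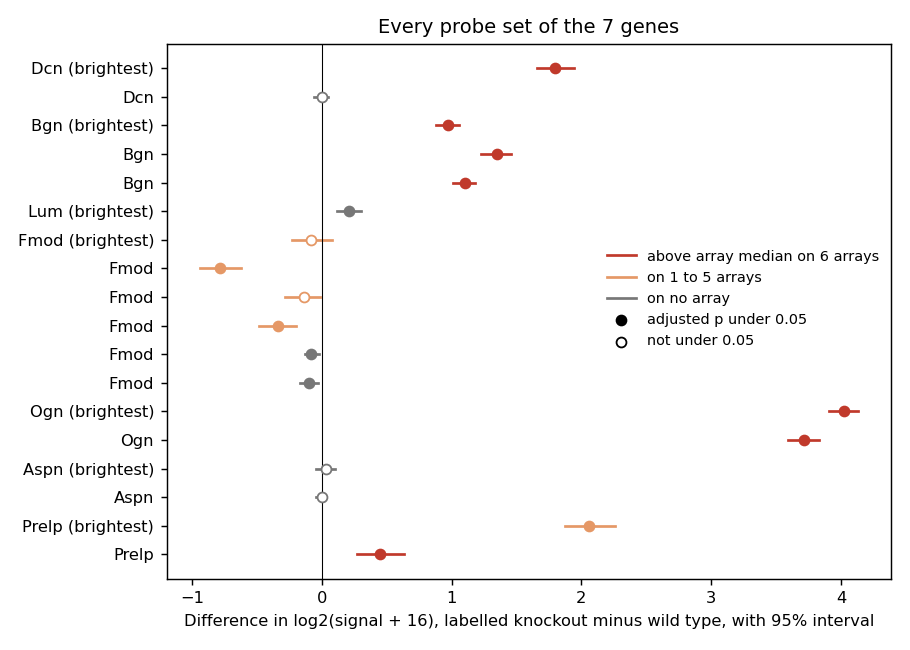
Difference in log2(signal + 16), labelled knockout minus wild type, with its 95% interval, for each of the 18 probe sets of the 7 genes, coloured by the number of arrays on which the probe set exceeded the array median and filled where the adjusted p was under 0.05. Both Ogn probe sets lie at 4.02 and 3.71, those of Bgn between 0.97 and 1.35, and the 6 of Fmod at or below -0.08.

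All members but Bgn lie in clusters with relatives of the same family, so the neighbouring family genes were described too. In the RefSeq annotation of the mouse assembly GRCm38.p6, Dcn, Lum, Kera and Epyc follow each other on chr10:97479500-97681908. Ecm2, Aspn, Omd and Ogn share chr13:49504810-49624501, and Optc, Prelp and Fmod share chr1:133897193-134048280. Bgn is at chrX:73483601-73495936. The build of the array's probe design is not used here.

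In the chromosome 13 cluster the adjoining genes Omd and Ogn rose by large factors, while Ecm2 and Aspn were dim. Omd, which encodes osteomodulin, a class II keratan sulfate proteoglycan of bone, read 26.1, 19.5 and 19.8 in wild type and 1727.2, 1832.7 and 1709.8 in arrays labelled knockout. It was thus near the median in wild type and bright in every array labelled knockout. Omd rose by 5.55 (95% interval 5.41 to 5.70, adjusted p = 1.1e-14), more than Ogn beside it. Ecm2 had means of 2.97 and 3.30 and, like Aspn, was dim on every array and did not pass (adjusted p = 0.306). The annotated span of Cenpp, a kinetochore gene, at chr13:49464025-49652950 contains all 4 family genes, and Cenpp itself fell from 314.9 ± 6.98 to 118.6 ± 6.49 (SD, n = 3 each; difference -1.30). Ogn and Omd therefore moved opposite to the gene whose span holds them.

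The 250 bases before the annotated start of Ogn, Omd and Aspn are shown because these neighbours differ in signal, and those of Bgn because it is the member that stands alone. They are RefSeq sequences of GRCm38.p6, plus strand, 5′ to 3′, and capitals mark matches on either strand to any of 5 motifs. The motifs searched were TATAAA for the TATA box, TGANTCA for the AP-1 site, GGGCGG for the GC box, TGACGTCA for the cAMP response element and CATTCCA for the MCAT element bound by TEAD factors. Of the 7 members, 5 have an entry in the promoter table.
Ogn, chr13:49607765-49608014: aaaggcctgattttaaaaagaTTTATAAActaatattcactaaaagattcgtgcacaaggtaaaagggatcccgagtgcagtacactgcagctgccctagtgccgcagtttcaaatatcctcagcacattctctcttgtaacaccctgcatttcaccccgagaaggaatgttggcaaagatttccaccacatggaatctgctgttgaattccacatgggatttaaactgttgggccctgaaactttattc
Omd, chr13:49582212-49582461: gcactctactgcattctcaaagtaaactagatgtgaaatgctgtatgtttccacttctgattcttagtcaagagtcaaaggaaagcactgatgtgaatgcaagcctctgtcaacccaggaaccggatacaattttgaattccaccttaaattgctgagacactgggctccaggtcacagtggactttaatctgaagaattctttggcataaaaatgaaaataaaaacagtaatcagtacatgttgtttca
Aspn, chr13:49544193-49544442: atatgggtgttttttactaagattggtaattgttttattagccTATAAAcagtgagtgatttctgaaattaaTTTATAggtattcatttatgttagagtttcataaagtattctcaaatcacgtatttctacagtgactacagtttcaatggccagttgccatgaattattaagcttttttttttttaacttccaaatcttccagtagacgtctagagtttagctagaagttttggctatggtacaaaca
Bgn, chrX:73483351-73483600: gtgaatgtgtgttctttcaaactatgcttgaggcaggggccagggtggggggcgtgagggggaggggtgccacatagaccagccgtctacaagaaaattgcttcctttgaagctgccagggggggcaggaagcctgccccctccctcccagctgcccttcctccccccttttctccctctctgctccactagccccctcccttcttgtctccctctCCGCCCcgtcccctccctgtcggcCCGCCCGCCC

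The window of Ogn holds TATAAA 227 bases before the start and its reverse complement 229 bases before it, the 2 overlapping. Aspn, dim on every array, has the same motif at 207 and, reversed, at 178 bases. Omd holds none of the 5 motifs in this window. Bgn has the GC box on the opposite strand at 34, 10 and 6 bases before its start, the last 2 overlapping. Over all 32851 promoter windows of 250 bases, 12.4% held the TATA box, 32.7% the GC box, 6.75% the AP-1 motif, 1.55% the cAMP response element and 3.69% the MCAT element. G and C made up 64.4% of the Bgn window, 42% of that of Ogn, 38.4% of that of Omd and 30% of that of Aspn, against a median of 52.4% over all windows. These matches describe the letters only.

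In the chromosome 10 cluster Dcn rose and Lum passed while dim, and Kera and Epyc, which encode keratocan of the cornea and epiphycan of cartilage, were dim on every array with differences of 0.01 and -0.01. In the chromosome 1 cluster Optc, the gene of opticin of the eye, fell while dim, from 8.53 ± 0.124 to 6.59 ± 1.34 (SD, n = 3 each; difference -0.12, adjusted p = 0.0217), and was at 0.04 under poly-A spike scaling. Among 10 measured genes flanking each locus, 5 rose and 4 fell around the Dcn cluster, 5 and 2 around the Ogn cluster, 3 and 4 around the Fmod cluster, and 3 and 4 around Bgn. Over all genes 24.2% rose and 35.5% fell. The medians of the flanking genes were 0.18, 0.15, -0.04 and -0.10. Their differences ran from -1.11 to 3.93 (Dusp6) around the Dcn cluster and from -1.30 to 2.09 (Fgd3) around the Ogn cluster. Around the Fmod cluster they ran from -1.13 to 2.35 (Chil1), and around Bgn from -1.10 to 1.02 (Slc6a8). Dusp6 thus rose by more than Dcn, Chil1 by more than Prelp, and Slc6a8 by about as much as Bgn (0.97). The median difference of bright genes (mean log2 above 7) was 0.34 on chromosome 13, 0.23 on chromosome 10, -0.16 on chromosome 1 and -0.16 on X, against -0.08 over all bright genes. With each bright gene centred on its chromosome, Ogn was at 3.68, Dcn at 1.56 and Bgn at 1.12.

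**Figure D4:**
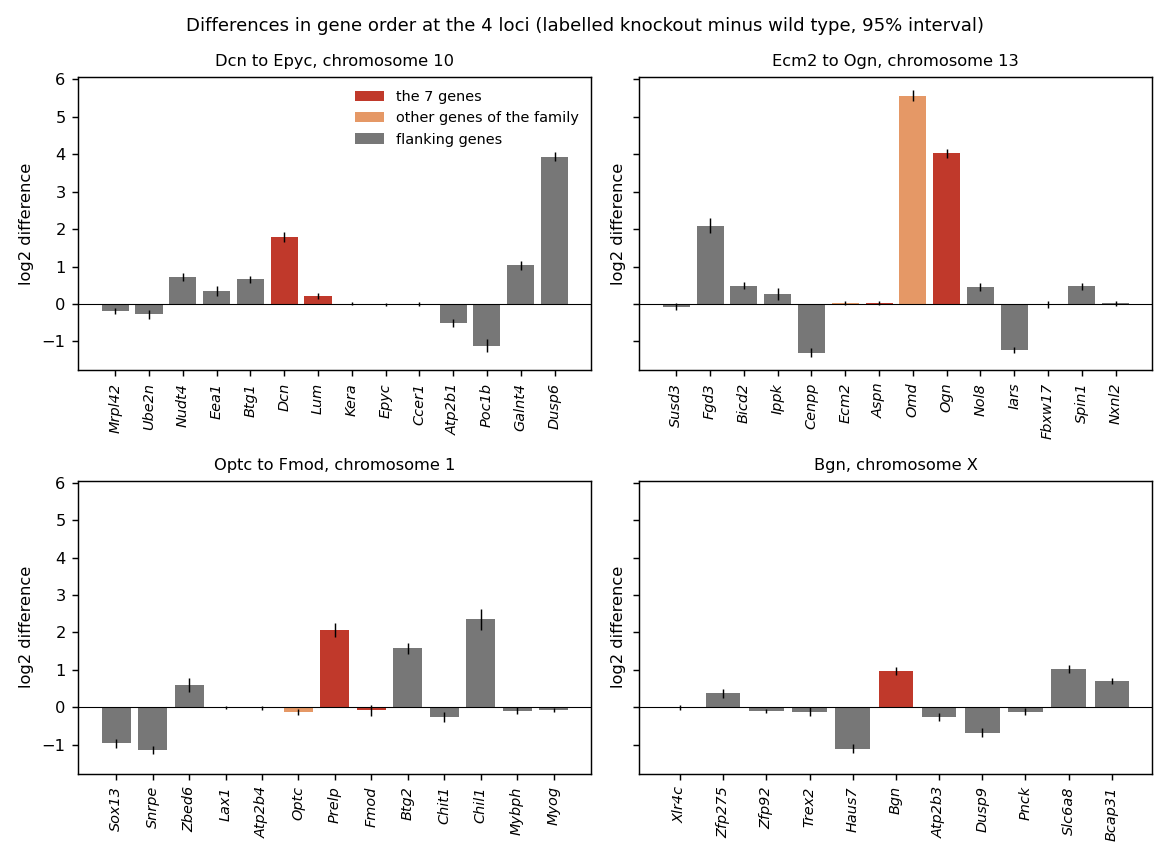
Log2 difference (labelled knockout minus wild type, 95% interval) of measured genes in their order along the chromosome at the 4 loci, with the 7 genes in red, other genes of the family in orange and 5 flanking genes on each side in grey. Omd at 5.55 and Ogn at 4.02 stand side by side on chromosome 13, between Aspn at 0.03 and Nol8 at 0.46, and Dcn stands at 1.80 beside Lum at 0.21.

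Of 9 measured family genes outside the 7, 3 rose and 1 fell (median 0.02), against 24.2% and 35.5% of all genes. Under poly-A spike scaling the median was 0.20, and 7 rose and none fell. With the hybridization spikes the median was -0.02, and 3 rose and 2 fell. Besides Omd, the family genes that rose without such scaling were Chadl and Nyx. Chadl, which encodes a chondroadherin-like protein of cartilage, read 22.8, 31.0 and 22 in wild type and 71.8, 80.5 and 55.6 in arrays labelled knockout, with no overlap. Its difference was 1.04 (95% interval 0.79 to 1.30). Nyx, the gene of nyctalopin of the retina, was dim on all arrays (0.14). Podn, the gene of podocan, read 54.9 ± 2.67 and 50.6 ± 0.891 (SD, n = 3 each) and did not pass (-0.09, adjusted p = 0.308). Chad was dim and did not pass (0.07).

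By subclass, 2 of 4 measured genes rose in class I (Dcn and Bgn). In class II 3 of 5 rose (Omd, Prelp and Lum, the last dim on every array). In class III 1 of 3 rose (Ogn), and Optc fell while dim. Over all genes 24.2% rose and 35.5% fell, and classes of 3 to 5 genes are too small to set against these shares. The 4 genes of these classes above the median on all arrays (Dcn, Bgn, Omd and Ogn) rose. The median was 0.5 in class I, 0.21 in class II and -0.01 in class III.

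The enzymes that build the chains were mixed. Of 16 measured genes for chondroitin and dermatan sulfate chains, 8 rose and 5 fell (median 0.22), against 24.2% and 35.5% of all genes. Chst15, a sulfotransferase of chondroitin sulfate, rose from 57.5 ± 4.65 to 452.3 ± 27.7, a difference of 2.67. Dsel, an epimerase-like gene of dermatan sulfate, rose from 65.0 ± 2.09 to 434.7 ± 11.2, a difference of 2.48, and Chpf, a chain polymerizing factor, by 1.44. Csgalnact2, which starts chondroitin chains, fell from 158.2 ± 21.9 to 79.1 ± 8.67 (SD, n = 3 each; -0.87). Under poly-A spike scaling the counts were 11 and 1, with Csgalnact2 still lower, and with the hybridization spikes they were 8 and 8.

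The linker that joins chain and core was listed with its sugar and sulfate precursors. Of these 14 measured genes 5 rose and 3 fell, against 24.2% and 35.5% of all genes. The median of 0.06 became 0.51 under poly-A spike scaling, where 10 rose and 1 fell, and -0.14 with the hybridization spikes, where 4 rose and 6 fell. Falls thus outnumbered rises under the latter alone of the 4 scalings. Pxylp1, a phosphatase of the linker xylose, rose from 225.1 ± 10.6 to 588.0 ± 5.18 (1.33), and Papss1, which makes the sulfate donor, fell from 750.6 ± 40.2 to 338.1 ± 9.11 (SD, n = 3 each; -1.11). Slc35b3, a transporter of that donor, rose by 0.67. Fam20b, the kinase of the linker xylose, fell by 0.58, a call lost under poly-A spike scaling (-0.09).

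Among 9 genes for keratan sulfate chains, 2 rose and 4 fell (median -0.02), against 24.2% and 35.5% of all genes. The balance turned under poly-A spike scaling, where 5 rose and 2 fell (median 0.10), and with the hybridization spikes 2 rose and 6 fell. The balance over all genes turned with the poly-A spikes as well. The galactosyltransferase genes B4galt1 and B4galt4 fell by 1.23 and 0.95, from 629.5 ± 31.9 to 259.2 ± 10.4 and from 68.4 ± 4.11 to 27.7 ± 5.98 (SD, n = 3 each). B4galt1 was at -0.50 with chromosomes centred. Chst1, the keratan sulfate sulfotransferase, rose by 0.57, and the fucosyltransferase gene Fut8 by 0.80, or 0.20 with probe sets averaged.

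Of 18 measured genes for processing or breaking down chains and cores, 12 rose and 4 fell, with a median of 0.82. Over all genes 24.2% rose and 35.5% fell. Mmp3 rose from 9.51 ± 2.26 to 502.1 ± 29.4 (4.35) and Adamts1 from 59.9 ± 1.23 to 924.2 ± 58.0 (3.63); both encode proteases that cut proteoglycan cores. Mmp14, a membrane protease, rose by 2.59, and the lysosomal glucuronidase gene Gusb fell by 3.40. Bmp1, which encodes the protease that removes the propeptide of biglycan and was named after its values were seen, rose from 208.1 ± 8.18 to 692.4 ± 21.5 (SD, n = 3 each; 1.66). With probe sets averaged Bmp1 was at 1.09.

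The matrix partners of the proteoglycans went both ways. Of 14 measured genes 4 rose and 7 fell (median -0.07), against 24.2% and 35.5% of all genes. Here too the balance turned under poly-A spike scaling, where 8 rose and 6 fell (median 0.19), and with the hybridization spikes 4 rose and 8 fell. That turn was shared by all genes, of which 10435 rose and 2809 fell with the poly-A spikes. Col1a2 and Col3a1, chains of the fibrils that decorin and lumican coat, had differences of -6.48 and -5.99, with means of 9.71 and 14.9 in arrays labelled knockout. With the x, s and a types of probe set removed, Col3a1 was at -2.50. Col6a2, of the microfibrils that biglycan binds, fell by 2.92, and Col12a1, a collagen on fibril surfaces, rose by 4.67, or 1.89 with probe sets averaged. Col1a1, the partner chain of Col1a2 and named after its values were seen, rose by 1.80, from 412.8 ± 6.20 to 1477.8 ± 42.3 (SD, n = 3 each). Fibril chain genes thus moved in both directions where Dcn and Bgn rose.

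Of 24 measured receptors and growth factors listed with these proteoglycans, 15 rose and 4 fell (median 0.88), against 24.2% and 35.5% of all genes. With the poly-A spikes 18 rose and 1 fell, and with the hybridization spikes 13 rose and 8 fell. Bmp4 rose by 4.15 and Ccn2 by 3.37, both secreted factors. Lrp1, an endocytic receptor of decorin, rose from 130.2 ± 13 to 726.9 ± 29.3 (2.35) and Igf1r, which decorin also binds, from 242.1 ± 11.2 to 1101.0 ± 73.5 (SD, n = 3 each; 2.11, or 1.37 with probe sets averaged). With probe sets averaged the list median was 0.34. The Toll-like receptors of biglycan were named after their values were seen: Tlr4 rose by 1.01 (95% interval 0.88 to 1.14), or 0.56 with probe sets averaged, and Tlr2 was at 0.00 (-0.13 to 0.13). The difference between these genes was not tested.

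Of 13 larger and other proteoglycans and their link proteins, all measured, 1 rose and 2 fell, and 7 were dim on every array. Over all genes 24.2% rose and 35.5% fell. Prg4, which encodes the joint lubricant lubricin, rose from 5.47 ± 1.97 to 298.5 ± 22.4 (SD, n = 3 each; 3.87). Hapln3, a link protein gene, fell by 0.25 and Bcan, of brevican, by 0.12, and both were higher under poly-A spike scaling (0.07 and 0.11). Vcan, of versican, named after its values were seen, read 54.2 ± 1.94 and 51.6 ± 2.51 and did not pass (adjusted p = 0.547). Under poly-A spike scaling 7 rose and none fell, and with the hybridization spikes 1 rose and 9 fell.

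**Figure D5:**
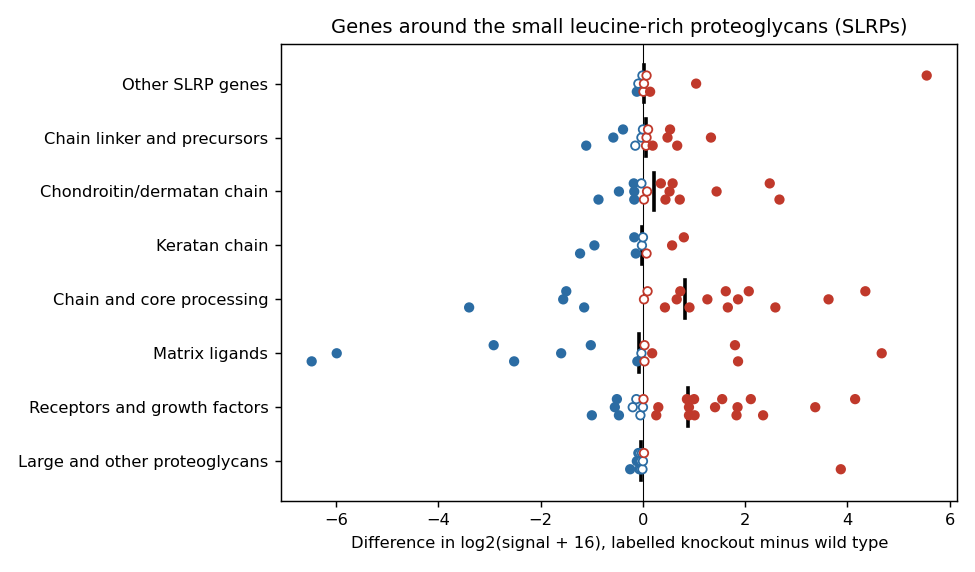
Log2 difference (labelled knockout minus wild type) of each measured gene in the 8 lists around the small leucine-rich proteoglycans, filled where the adjusted p was under 0.05, red above and blue below 0, with a bar at the list median. Omd at 5.55 stands apart in the top row, and medians run from -0.07 for matrix ligands to 0.88 for receptors and growth factors.

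Markers of fibroblasts and of other cell types moved with the proteoglycan genes in part. Of 12 fibroblast markers 7 rose and 2 fell, against 24.2% and 35.5% of all genes. Their summed signal went from between 14053.5 and 14790.5 in wild type to between 23906.9 and 24990.6. Vim was the largest part of that sum in both groups (5287.7 ± 422 against 7306.5 ± 55.7, SD, n = 3 each). Scaled on the poly-A spikes 10 of the 12 rose and 2 fell, and on the hybridization spikes 6 rose and 3 fell. Without such scaling, the 2 that fell were Col1a2 (-6.48) and Col3a1 (-5.99). Col1a2 went from 2283.6 ± 143 to 9.71 ± 2.16 and Col3a1 from 1933.9 ± 109 to 14.9 ± 4.09 (SD, n = 3 each). Vim, Fn1, Pdgfrb and Prrx1 were above the median on all arrays, whereas Thy1 and Fap were dim on every array. Pdgfra was at 9.99 ± 0.999 in wild type and 1788.8 ± 56.7 in arrays labelled knockout (SD, n = 3 each). Of 7 tendon markers 3 rose (Egr1, Tnc and Scx, with sums of 842.7 to 904.3 against 3331.5 to 3872.9), and the defining marker Tnmd was dim throughout. Most of that sum was Egr1 (728.0 ± 29.5 against 3398.0 ± 288), while Scx went from 31.4 ± 1.02 to 44.1 ± 3.46. Mkx, above the median on all arrays, did not pass (77.1 ± 2.68 against 68.1 ± 3.75, SD, n = 3 each). Under poly-A spike scaling 6 tendon markers rose and none fell, and with the hybridization spikes 2 rose and 3 fell, where Scx at 0.15 no longer passed. Of 12 cartilage markers 3 rose and 1 fell (sums of 109.3 to 118.9 against 220.4 to 238.5), led by Sox9 at 1.59, with Col2a1 and Acan dim on every array. Of the cartilage markers 9 rose and 1 fell with the poly-A spikes, and 3 rose and 5 fell with the hybridization spikes.

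Of 9 leukocyte markers 3 rose (Cd14, Lyz2 and Cd68, with sums of 179.5 to 195.9 against 552.1 to 589.5), and Ptprc, Adgre1 and Itgam were dim on every array. Cd14 made up most of that sum (99.9 ± 8.32 against 400.8 ± 24.5, SD, n = 3 each). Of 5 measured bone markers none rose and 1 fell (sums of 50.4 to 56.4 against 42.9 to 51.6), of 7 endothelial markers none passed (43.3 to 51.1 against 39.9 to 48.1), of 7 epithelial markers 3 fell (66.2 to 68.1 against 47.2 to 56.7) and of 7 muscle markers 2 fell (104.0 to 116.0 against 65.8 to 73.7). The defining markers Ibsp, Pecam1, Cdh1 and Myod1 were dim on every array. Other markers of these lists were above the median on all arrays, among them Sp7 of bone, Kdr of endothelium, Des of muscle and Csf1r of leukocytes. Of those named, Des fell by 0.73 and the rest did not pass. The bone markers Runx2, Bglap, Bglap2 and Spp1 were not among the measured genes. At an unadjusted p under 0.05 the endothelial count was 0. These counts moved with the scaling, and so did those over all genes. Of all genes 4411 rose and 6455 fell, but 4050 and 9738 with arrays centred on the median. Over all genes 10435 rose and 2809 fell with the poly-A spikes, and 3036 and 10722 with the hybridization spikes. Under poly-A spike scaling 8 leukocyte markers rose and none fell, 4 bone markers rose and 1 fell, 3 endothelial markers rose and none fell, 2 epithelial markers rose and none fell, and 2 muscle markers rose and 1 fell. With the hybridization spikes 3 leukocyte markers rose and 2 fell, while 3 bone, 4 endothelial, 6 epithelial and 4 muscle markers fell and none of these 4 types rose. With arrays centred on the median, 3 leukocyte markers rose and 4 fell, and 3 bone, 4 endothelial, 5 epithelial and 5 muscle markers fell. The part of these cell types in the proteoglycan differences was not tested.

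The genes whose profile over the 6 arrays was most like that of a member were named by the root mean square difference of log2(signal + 16), each gene centred on its own mean. For Ogn they were Srgap3 (0.054), Islr (0.059) and Dusp6 (0.070), with differences of 3.92, 4.11 and 3.93; Islr encodes another secreted protein with leucine-rich repeats. For Dcn they were Rcn1 (0.039), Prrc2c (0.044) and Zswim6 (0.047), and Rcn1 encodes a calcium-binding protein of the endoplasmic reticulum. For Prelp they were C1qtnf1 (0.025), Fzd5 (0.051) and Celf4 (0.064). With 2 groups of 3 arrays this likeness mostly reflects an equal difference between the groups.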

How the data were processed

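Expression was measured on 6 arrays, 3 per group, from 6 µg of total RNA per the labels' protocols. The deposited values are linear intensities, 1 per probe set and array. MAS5 is named in the submitters' processing notes; which step it did, its version and any scaling target are not given in the labels used here. Groups and replicate numbers came from the titles.

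Of 45101 probe sets, 64 were controls, 34945 had 1 gene and 932 several; 34741 matched RefSeq (GRCm38.p6) by Entrez number. The two-sided test on log2(signal + 16) was limma's (version 3.58.1, R 4.3.3; lmFit, then eBayes with a trend). P-values were adjusted by Benjamini-Hochberg across 18193 genes (brightest probe set by mean log2), or across 45037 probe sets where stated. The threshold was an adjusted p of 0.05, alone or with a 2-fold difference. The fit was run on simulated data with independent noise and few changed genes. That setting differs from the data here, where 59.7% of genes passed. The number of arrays limits precision.

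The members and lists were chosen with earlier results of these data known. Named genes are the 7, their family, Abl1 and Abl2, up to 4 genes per list with the largest differences that passed, defining markers, and the 3 genes most like each member with a difference of at least 1. Flanking genes, 5 on each side of a locus, were chosen after the data were seen. Alternatives were offsets of 1 and 64, 4 scalings, probe set choice, a filter on dim genes, variance models, array weights, chromosome centring, the replicate block and leaving out each array. Figures used matplotlib 3.10.9.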

Additional observations from a re-analysis of the deposited data

How the results depend on the processing

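The differences of Dcn, Bgn, Lum, Ogn and Prelp kept their direction and passed under every alternative run for them. Some alternatives could not move a given gene. Chromosome centring, done on bright genes only, left Lum and Prelp as they were. Removing the x, s and a types kept the same probe set of Dcn, Bgn, Lum and Ogn, and Lum has a single probe set to average. The filter on dim genes kept Prelp through its mean in arrays labelled knockout (88.0, against 8.97 in wild type). Across alternatives other than leaving out an array, Dcn ranged from 0.90 (probe sets averaged) to 2.29 (poly-A spike scaling), Bgn from 0.71 to 1.49, Lum from 0.07 to 0.62, Ogn from 3.68 to 4.53, and Prelp from 0.45 (x, s and a types of probe set removed) to 3.19 (offset of 1). The count of members that rose ran from 4 to 7, and at 2-fold from 2 to 4, where the main fit had 7.0% of all genes. The count of 7 came with poly-A spike scaling alone, where 10435 of all 18193 genes rose. A count of 4 came with dim genes left out, where Lum and Aspn were not tested and 4149 of 11815 genes rose. The count that fell was 1 under hybridization spike scaling, with averaged probe sets, and with the x, s and a types removed; that gene was Fmod each time. Fmod was at -0.20 under hybridization spike scaling (adjusted p = 0.00697), -0.25 with probe sets averaged and -0.08 with those types removed (adjusted p = 0.018), and it was reversed to 0.17 under poly-A spike scaling. Aspn was at 0.15 and passed under poly-A spike scaling (adjusted p = 0.000272), at -0.02 with arrays centred on the median and at -0.04 under hybridization spike scaling. The spike scalings shift all genes of an array together, and the error of the spike reference is not in their p-values; otherwise the cause was not tested. With each array left out in turn, no member changed its call: Bgn ran from 0.94 to 1.0, reaching 2-fold without wild-type replicate 2 or without labelled-knockout replicate 1. With the replicate block Ogn was at 4.02, Dcn at 1.80 and Bgn at 0.97, and the block changed no member's call; over all genes 4458 rose and 6477 fell with it, against 4411 and 6455. Deviations of same-numbered arrays correlated at 0.04, 0.11 and 0.16, not all over 0.1, so the numbers were not taken to pair them, although each array correlated best with its own number. Over all genes, rises made up 40.6% of calls, but 29.4% with arrays centred on the median, 78.8% under poly-A spike scaling and 22.1% with the hybridization spikes. Signals near the floor limit what can be said of Aspn, Lum and Fmod.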
